A study of Mus musculus with 44 samples.

Results

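Of the 1109 AsiSI motifs listed for the mouse genome, 84 lie on chromosome 2, which also carries the bait break. The 75 motifs described here are those left after the bait motif and the 8 chromosome 2 motifs that draw the most prey (the leading sites) were set aside. A junction was assigned to a motif when it lay less than 500 bp from it. By END-seq, which maps broken DNA ends, 5 of the 75 sites had a signal over 300 RPKM in the study's list, 9 had 100 to 300, 6 had 10 to 100 and 55 had under 10. In 26 libraries these sites received 7414 of 113691 junctions, and 29 of them received at least 1.

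HTGTS (high-throughput genome-wide translocation sequencing) reads outward from a primer beside one fixed break, the bait, into whatever DNA that end was joined to, the prey. AsiSI cuts the motif GCGATCGC, leaves a short 3′ overhang, and does not cut when the CpG dinucleotides of the motif are methylated, so that only some motifs of a genome are broken in living cells. A join between 2 broken ends of the same chromosome can delete the DNA between them, invert it or close it into a circle, whereas a join to another chromosome is a translocation.

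The 26 libraries came from AsiSI-MEFs, mouse embryonic fibroblasts of strain C57BL/6 with genotype WT in the labels, which carry a doxycycline-inducible AsiSI fused to the estrogen receptor. All cells, controls included, received doxycycline for 24 h and 4-hydroxytamoxifen (4OHT) for 6 h. CK-666 (100 µM, an ARP2/3 inhibitor) and its DMSO control had 6 libraries each. NU7441 (10 µM, a DNA-PKcs inhibitor) and its DMSO control had 3 each. Wiskostatin (3 µM, a WASP inhibitor) and its DMSO control had 2 each, as did actin R62D-NLS, a polymerization-deficient nuclear actin, and its empty-vector control. The study calls its replicates biological, but the labels do not name separate cultures, and p-values measure the spread between libraries. Shares are given over the junctions of a library that map to a placed chromosome at least 10 kb away from the bait break, which numbered between 335 and 17479. The study instead normalized to bait-only reads and reported fewer translocations with each of these treatments. Those read numbers were not used here. A share describes how the junctions of a library are distributed, and cannot show whether joining rose or fell. Because 0 of the deposited lines repeat the prey offset, strand and bait end of another line of their library, junction numbers count distinct joins, and repeats of the same join cannot be seen.

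The sequences below show the mm10 plus strand at the bait, at the 5 members with END-seq over 300, and at the 3 members with END-seq under 10 that still received at least 10 junctions. Capitals mark the AsiSI motif, which is the same in every line.
Bait, chr2:13271306-13271335: accctgtcccaGCGATCGCgcaggcgcaca
Pip4k2a intron, chr2:18997433-18997462: agacaagtggaGCGATCGCtcggactgggc
Ly75 intron, chr2:60383062-60383091: cagagagcaaaGCGATCGCgacccgacccg
Lrp2 coding exon, chr2:69585833-69585862: ccaggcaggcaGCGATCGCcagcagcagca
Ninl intron, chr2:151003942-151003971: accaggcagagGCGATCGCtggattcctct
Soga1 untranslated region, chr2:157079205-157079234: cagcctgctcgGCGATCGCcgcctcggact
Gm13527, nearest start to an intergenic site, chr2:56997733-56997762: tggcttgtgcaGCGATCGCaagaagaggtg
Gm13255, nearest start to an intergenic site, chr2:8650417-8650446: agacctgatcaGCGATCGCaggaaaaatac
F730016J06Rik intron, chr2:28105088-28105117: cgatggttaatGCGATCGCacagctcgtgt
The sites were listed for holding this motif, so its identity at rarely and frequently cut members was fixed in advance. What sets these members apart was not tested.

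Prey at the 75 sites took 6.31% ± 0.8295 (SD, n = 6) of junctions in the DMSO libraries of the CK-666 experiment. The 6 libraries gave 6.27% (95% Wilson interval 5.00% to 7.83%), 7.27% (6.18% to 8.54%), 4.87% (4.35% to 5.46%), 6.96% (6.25% to 7.74%), 6.32% (5.27% to 7.56%) and 6.15% (5.54% to 6.82%). The third library was the lowest, and its interval did not overlap those of replicates 2, 4 and 6. Over all 13 control libraries the share ran from 3.53% to 7.27% with a median of 6.27%. MEFs without AsiSI, in which Cas9 cut the bait and which were collected 48 h after transfection, gave 0.0634% to 0.715% at the same sites in 3 DMSO libraries and 0.0983% to 0.845% in 3 libraries with CK-666 (100 µM). Of their 84 such junctions, 78 had the same prey position, strand, bait end and overlap as a junction of an AsiSI-MEF library, 60 of them in a library of the same sequencing run.

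Joined sites lay more often at the starts of genes. Of the 29 sites with a junction, 15 lay within 1000 bp of a protein-coding transcription start, against 4 of the 46 sites without one and 28.6% of the 1025 motifs on other chromosomes. The sites with a junction had a median of 47.95 CpG per kb in the surrounding 1 kb, and those without had 19.98. Both contrasts include sites in repeated sequence, nearly all without a junction, where prey may not have been placed. The first contrast also runs along END-seq class. Within 1000 bp of a protein-coding start lay 4 of the 5 sites over 300 and 8 of the 9 from 100 to 300. The same held for 4 of the 6 from 10 to 100 and 3 of the 55 under 10. The latter 3, at Scn9a, Mapkbp1 and Sulf2, received no junction. Whether joined sites lay nearer to gene starts within a class was not tested. The most frequent 5 sites held 55.6% of the members' junctions.

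The Pip4k2a site (ENSMUSG00000026737, intron, 678 bp from the start of this lipid kinase gene) lay 5.73 Mb from the bait and received 998 junctions, the most of any member. Its share over the 13 control libraries had a low of 0.350%, a median of 0.898% and a high of 1.44%. The Fign site (ENSMUSG00000075324), 456 bp outside the start of the gene for the microtubule-severing protein fidgetin and 50.8 Mb from the bait, received 934, with shares of 0.460%, 0.805% and 1.23%. The range of the Fign site lay within that of the Pip4k2a site, so the order of these sites is within the spread over libraries.

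The Fam171b site (intron, 70.5 Mb) received 825 junctions and the Chst1 site 773. The latter lies in an intron of a carbohydrate sulfotransferase gene 79.3 Mb from the bait. The Src site, in an intron of the gene for the tyrosine kinase 144 Mb away, received 590. Their shares over the 13 control libraries ran from 0.394% to 0.984%, from 0.328% to 0.784% and from 0.241% to 0.632%. These ranges overlapped each other and that of Pip4k2a.

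The Aqr site (untranslated region, 101 Mb), in a gene for a spliceosomal protein, received 443 junctions. The Usp6nl site (ENSMUSG00000039046), 167 bp outside the start of a gene for a Rab GTPase-activating protein, received 439. It was the only member with at least 100 junctions on the left of the bait, at a distance of 6.95 Mb. The Clp1 site (untranslated region, 71.5 Mb), in a gene for an RNA kinase of mRNA 3′ end processing, received 369. The other 9 sites with at least 100 junctions received between 151 and 258. They lie at Soga1, Ly75, Lrp2, Rbms1, Inafm2, Dusp15, Fnbp1, Ninl and Nop10.

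**Figure D1:**
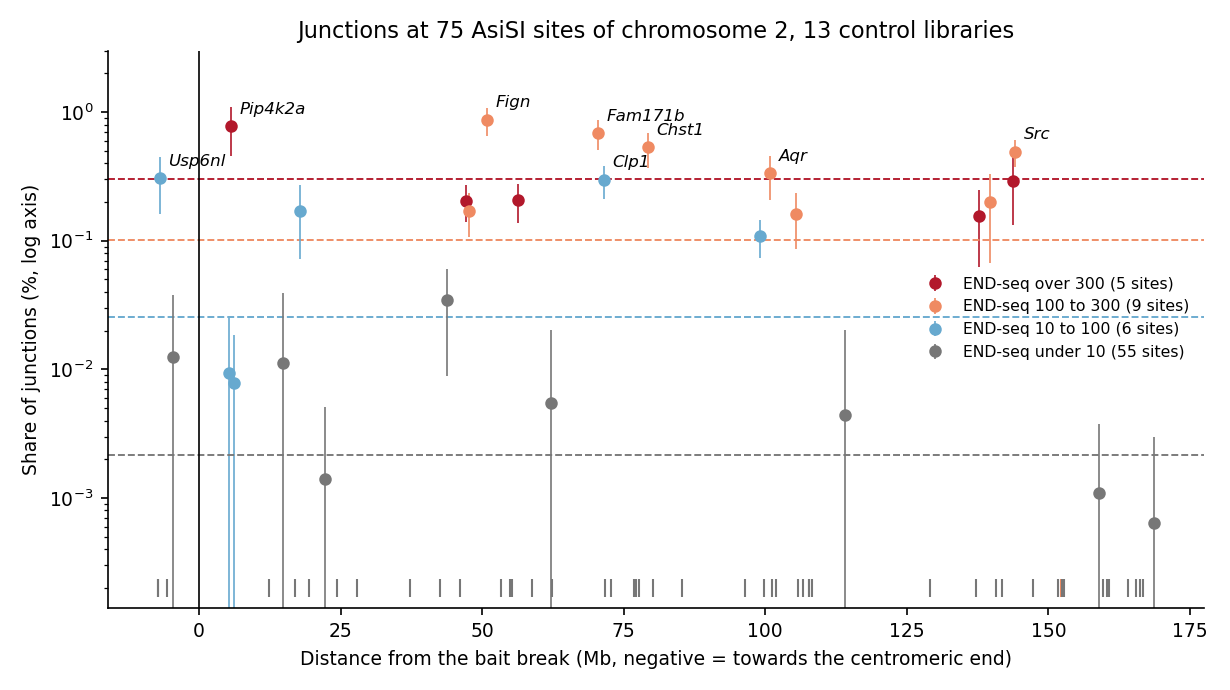
Mean share of junctions (%, log axis) over 13 control libraries at each of the 75 sites against its distance from the bait break in Mb. Bars are the SD, ticks at the bottom are sites without a junction in these libraries, and dashed lines are the mean per motif of the same END-seq class on other chromosomes. From 20 Mb on, the joined sites of the classes 100 to 300 and 10 to 100 sit above their dashed line. Nearer to the bait 2 sites of the class 10 to 100 sit above it and 2 below. Of the sites over 300, at all distances, Pip4k2a sits above its line and Ly75, Lrp2, Ninl and Soga1 below.

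The relation of share to distance from the bait changed with the set of sites. Among the 14 members with END-seq over 100 the share over the 13 control libraries had a Spearman rho of -0.42 with distance, and among the 20 with END-seq over 10 it had -0.06. With the 8 leading sites, which were set aside for their prey, these values, added like the others with those sites after the data had been seen, were -0.24 over 22 sites and 0.038 over 28. These are descriptions across sites that share libraries. The 13 sites under 20 Mb from the bait held 22.5% of the members' junctions, the 15 from 20 to 60 Mb 23.1%, the 24 from 60 to 110 Mb 37.7% and the 23 farther out 16.7%. The removal of the leading sites shaped these shares, since 4 of the 8 lay under 20 Mb, 0 from 20 to 60 Mb, 1 from 60 to 110 Mb and 3 farther out. With them the shares were 37.1%, 7.45%, 21.6% and 33.9%. With each site divided by the mean of its END-seq class on other chromosomes, the medians of the members with END-seq over 10 were 2.57, 1.18, 4.73 and 0.962 in the same order. The removal of the leading sites shaped these medians too, and they were not computed with those sites. They therefore do not describe all chromosome 2 sites at a distance. The nearest group was itself mixed. Pip4k2a stood at 2.57 times its class mean, while the sites near Gm13355 and in Gm13344, at 5.34 and 6.16 Mb, stood at 0.365 and 0.304 with 11 and 19 junctions.

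Across all 75 members, those with more END-seq signal were joined more often. Among the 14 with signal over 100 the Spearman rho between signal and share was only 0.19. The rho between signal and share was 0.60 over the 75 members and 0.45 over the 20 with signal over 10, against 0.73 and 0.77 over the 1025 and 334 corresponding motifs on other chromosomes. The members' values are lowered by the removal of the leading sites, all of which had a signal over 300. With them the rho was 0.72 over 83 motifs, 0.76 over 28 and 0.72 over the 22 with signal over 100. Of the 20 members with signal over 10, 19 received at least 11 junctions. The exception was the site in an untranslated region of Slc13a3, a sodium-dependent dicarboxylate transporter gene, 152 Mb from the bait. It ranked 14 of 75 by END-seq and received 0 of 113691 junctions, which allows a share of up to 0.00264%. No junction lay up to 10 kb from it, and the 50 bp on each side of its motif occurred 1 time in mm10. Of the 104 motifs of its class on other chromosomes, 12.5% had no junction in the 13 control libraries.

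Of the 55 members with signal under 10, 45 received no junction and 10 received 83 in all. The intergenic site nearest to Gm13527, 43.7 Mb from the bait and 115324 bp from the nearest protein-coding start, held 45 of these, in 18 of 26 libraries and never more than 6 in one. The site nearest to Gm13255 and the intron of F730016J06Rik had 10 each, in 6 libraries each. At 55 of the 75 members the 50 bp on each side of the motif occurred 1 time in mm10. Of the members with a repeated flank, only the site nearest to Gm5466 received a junction. Reads of low mapping quality were removed, so missing joins at such sites cannot be told apart from prey that could not be placed. Bait and prey share the 8 bases of the motif, so an end-to-end join without loss or gain leaves 1 whole motif on the read. Of the 83 joins, 64 (77.1%) were of this form, and at 7 of the 10 sites all were. At the 17 members with at least 100 junctions the share ran from 13.03% at Pip4k2a to 42.4% at Nop10. A member, strand and library held a median of 1 whole-motif join and at most 9, which differed in read offset or bait end. As joins alike in both are kept 1 time, the share can be lowered where a site gathers many joins, and the classes are not compared by it. Each of the 29 joined members had at least 1 whole-motif join.

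By the mean per motif, members of intermediate END-seq signal were joined several times more often than motifs of the same signal on other chromosomes. In the class from 100 to 300, from which no chromosome 2 site was set aside, the 9 members received 0.383% ± 0.0617 (SD, n = 13) of junctions per motif in the control libraries and the 104 motifs elsewhere 0.102% ± 0.0121. The mean log2 ratio was 1.90 ± 0.210 (SD), a 3.72-fold difference that was above 1 in 13 of 13 libraries (exact two-sided sign-flip test, p = 0.000244, adjusted p = 0.000326 over 4 tests). In the class from 10 to 100 the 6 members received 0.150% ± 0.0324 per motif and the 112 others 0.0256% ± 0.00383. The ratio was 5.79-fold (log2 2.53 ± 0.266, 13 of 13 libraries, exact p = 0.000244, adjusted p = 0.000326), and p = 0.000244 is the smallest that 13 libraries can give. The members' median END-seq lay above that of 48.1% and 55.4% of the other motifs in these classes.

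Single sites carried these differences unequally. In the class from 100 to 300, the Fign, Fam171b, Chst1 and Src sites each had a higher mean share than all 104 motifs elsewhere, at 8.53, 6.71, 5.20 and 4.83 times the class mean. Rbms1, Inafm2 and Dusp15 stood at 1.68, 1.57 and 1.95 times, Aqr at 3.27 times, and Slc13a3 received no junction. In the class from 10 to 100, Usp6nl at 11.9 times and Clp1 at 11.7 times were above all 112 others. Fnbp1 and Nop10 stood at 6.68 and 4.25 times. The sites near Gm13355 and in Gm13344 were below the class mean, at 0.365 and 0.304 times, so the excess did not hold for every member. Without the most joined motif on each side the log2 ratios were 1.70 and 2.28.

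The 5 members over 300 received 0.327% ± 0.0821 per motif and the 118 motifs elsewhere 0.302% ± 0.0381, a 1.06-fold ratio that is not tested because the rule removed the leading sites of this class. With those 8 put back, the ratio was 4.11-fold (log2 2.04 ± 0.149, 13 of 13 libraries, exact p = 0.000244, adjusted p = 0.000326). In the class under 10 the order of the means was the opposite. The 55 members received 0.00130% per motif and the 691 others 0.00216%, and the members were higher in 1 of 13 libraries (log2 ratio -0.90 ± 0.891, exact p = 0.00195, adjusted p = 0.00195). This rests on 50 junctions at members, and 85.4% of the 1151 at other motifs fell on 5 of them. Of the 691 others, 92.9% had no junction in these libraries, and 45 of the 55 members had none in all 26. Members with a repeated flank, where prey may not have been placed, are included. In the 6 DMSO libraries alone the log2 ratio was -1.08 and did not pass (exact p = 0.0938).

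**Figure D2:**
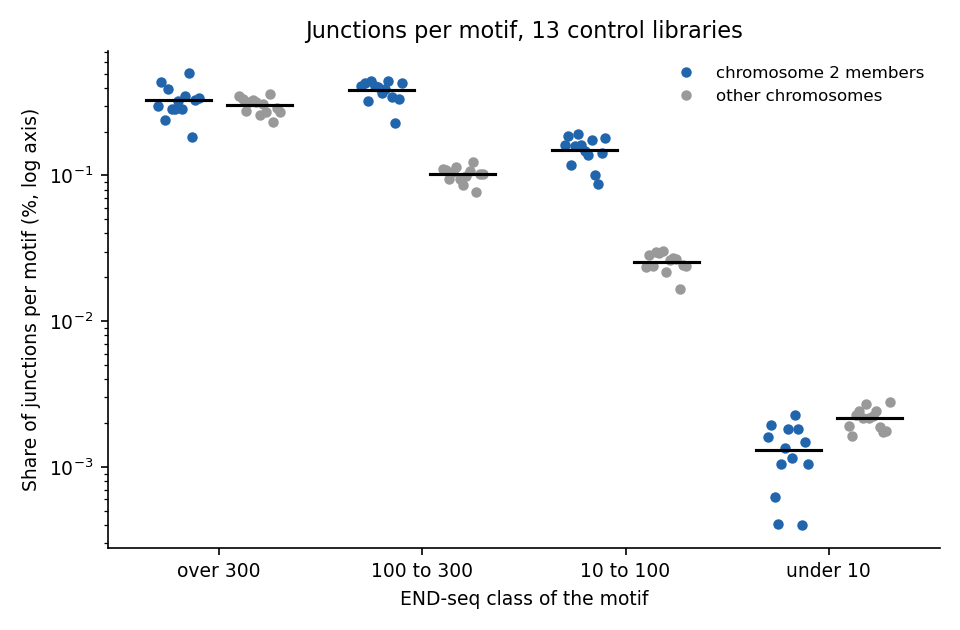
Share of junctions per motif (%, log axis) by END-seq class for chromosome 2 members (blue) and motifs of other chromosomes (grey). Points are the 13 control libraries and bars their means. The groups do not overlap in the classes 100 to 300 and 10 to 100, and overlap over 300 and under 10.

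Joins ran in both orientations. At sites right of the bait a prey on the plus strand corresponds to a deletion of the DNA in between and one on the minus strand to an inversion. Of the 6965 junctions there, 51.8% (95% Wilson interval 50.6% to 52.9%) were on the plus strand. The share was 59.3% (56.5% to 62.04%) at sites under 20 Mb and 50.2% (48.9% to 51.5%) farther out. Of the 1219 junctions in the nearer set, 998 were at Pip4k2a (57.5% plus) and 181 at Fnbp1 (70.2%). The nearer value thus rests mainly on these sites, and the intervals cover counting error only. Whether orientation changed with distance was not tested. Per library, members and motifs on other chromosomes gave 51.3% ± 3.53 and 50.6% ± 0.758 (SD, n = 13), and the difference of 0.698 percentage points did not hold up against the libraries (exact sign-flip test, p = 0.508).

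Single sites departed from an even split. Fnbp1, 17.9 Mb away in the untranslated region of a formin-binding protein gene, had 70.2% plus-strand prey (63.1% to 76.4%), Soga1 63.2% (57.1% to 68.8%) and Fign 62.5% (59.4% to 65.6%). Dusp15 had 35.4% (29.2% to 42.2%), Src 36.3% (32.5% to 40.2%) and Usp6nl 37.4% (32.96% to 41.97%). Soga1 and Src lie 143.8 and 144.2 Mb from the bait, so neighbouring sites leaned in opposite ways. The SD over the 17 sites was 9.81 percentage points, and 12.6 over the 173 motifs with as many junctions on other chromosomes, where neither strand makes a deletion.

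**Figure D3:**
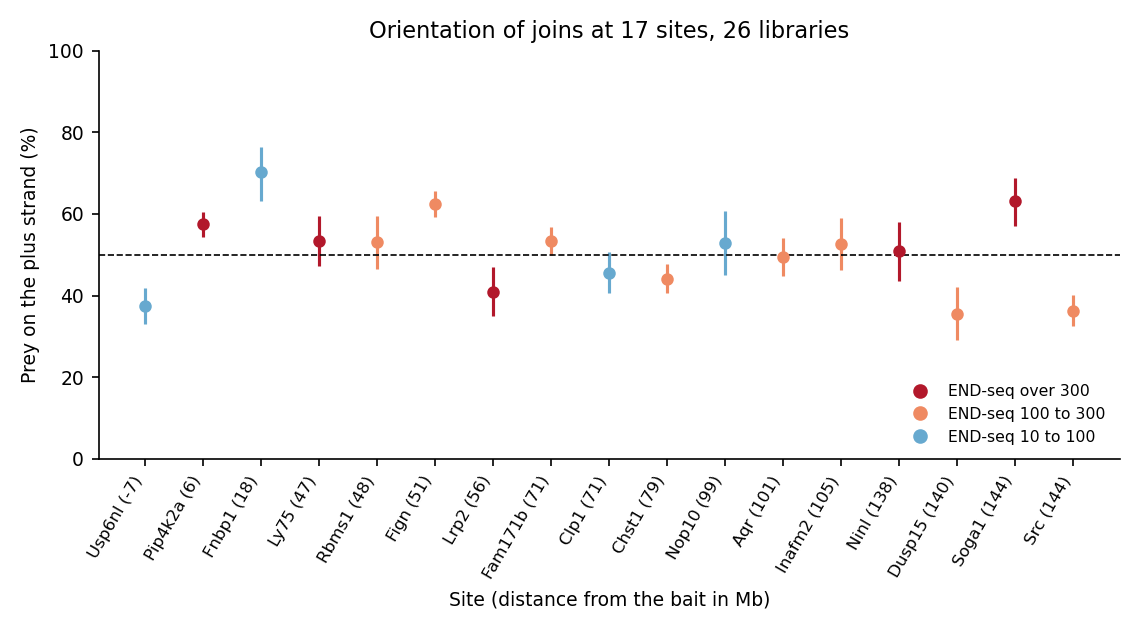
Prey on the plus strand (%) at the 17 members with at least 100 junctions over 26 libraries, in order of signed distance from the bait (Mb). Bars are 95% Wilson intervals, which cover counting error only, and the dashed line marks 50%. Intervals lie fully above the line at Pip4k2a, Fnbp1, Fign, Fam171b and Soga1 and fully below it at Usp6nl, Lrp2, Chst1, Dusp15 and Src.

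No class of join structure differed between members and motifs on other chromosomes beyond the spread over libraries. Over the 13 control libraries, 19.0% ± 7.10 of members' joins were blunt against 18.7% ± 6.56 elsewhere (exact p = 0.758, adjusted p = 0.758 over 4 classes). Overlaps of 1 to 5 bases made up 35.2% and 33.1%, overlaps of 6 or more 36.0% and 37.9%, and insertions 9.82% and 10.3%, with adjusted p of 0.330, 0.330 and 0.546 (exact sign-flip tests). Prey lay within 50 bp of the motif in 88.7% ± 4.05 of members' junctions and 89.2% ± 3.18 of others'. In the 6 DMSO libraries of the CK-666 experiment alone, members were lower by a mean difference of -3.18 percentage points, with 0 of 6 libraries higher. Among the 17 frequent members that share was lowest at Dusp15 (71.4%), Fign (71.9%) and Src (74.1%) and highest at Ninl (98.9%). Insertions ranged from 1.99% at Nop10 to 21.0% at Fign.

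With CK-666 the share at the 75 sites was lower than with DMSO in 6 of 6 pairs. The treated libraries gave 5.65%, 4.78%, 4.33%, 6.19%, 5.26% and 5.68%, each below its own control listed above, while the groups as wholes overlapped. The mean log2 ratio was -0.25 ± 0.184 (SD, n = 6), and p was 0.0312 (exact sign-flip test), the smallest 6 pairs can give. Adjusted over 10 tests it was 0.0781, and no adjusted value under 0.05 was possible with these pairs and tests. Within runs the mean was -0.38 over 2 pairs and -0.18 over 4. The widest difference, -0.61, came from the pair whose CK-666 library held 335 junctions, 16 of them at members. Without that pair the mean was -0.17. With only junctions at AsiSI motifs as the total, the log2 ratio was -0.19 and lower in 4 of 6 pairs (exact p = 0.156, not adjusted).

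Near and far sites both gave lower shares with CK-666. At END-seq over 100, the members under 60 Mb from the bait went from 2.30% ± 0.564 to 1.71% ± 0.482 (log2 -0.45 ± 0.697) and those from 60 Mb on from 2.96% ± 0.399 to 2.54% ± 0.318 (log2 -0.22 ± 0.136). Both were lower in 6 of 6 pairs (exact p = 0.0312, adjusted p = 0.0781). The class from 100 to 300 gave -0.34 (exact p = 0.0312, adjusted p = 0.0781) and that over 300 gave -0.24 (exact p = 0.0938, adjusted p = 0.188). Leaving out the pair with the 335-junction library, which had 3 near junctions, moved the near sites to -0.17 and the class over 300 to -0.12, and left the far sites at -0.22 and the class from 100 to 300 at -0.24. Whether near and far sites differed in their response was not tested.

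Of the 22 members with at least 10 junctions over the 26 libraries, limma called 0 with CK-666, as it did for all motifs (0% of 298 called). At an unadjusted p under 0.05 it had 28 of 298 motifs and 1 member, Dusp15, a dual-specificity phosphatase gene site. Its shares in the DMSO libraries were 0.0883%, 0.588%, 0.103%, 0.335%, 0.172% and 0.184%, and in the CK-666 libraries 0.0621%, 0%, 0.0981%, 0.122%, 0.101% and 0.181%. Dusp15 was lower in every pair, with the ranges of the groups overlapping (log2 change -1.39, SE 0.572, limma adjusted p = 0.479), and the change was -0.53 without the second pair. It was 1 of 17 members with at least 100 junctions that moved down in all pairs, against 2.02% of 198 such motifs. Of the 22 members, 18 had an estimate below 0, or 14 when the pseudocount was not scaled to the library. The members' median change was -0.42 and that of all motifs -0.26. Without the second pair they were -0.20 and -0.13, and with the unscaled pseudocount -0.074 and 0.053.

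The most joined members showed how far libraries spread. At Pip4k2a the shares were 0.441%, 1.44%, 0.549%, 1.03%, 0.402% and 0.718% in the DMSO libraries, against 0.559%, 0%, 0.621%, 0.782%, 0.708% and 0.687% under CK-666, higher in 3 of the 6 pairs. At Fign they were 1.06%, 1.23%, 0.738%, 0.917%, 0.805% and 0.791% in the DMSO libraries, against 0.869%, 0.597%, 0.572%, 0.921%, 0.404% and 0.651% under CK-666. The Fign site was lower in 5 of the 6 pairs, and at both sites the groups overlapped (limma adjusted p = 0.576 for each).

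**Figure D4:**
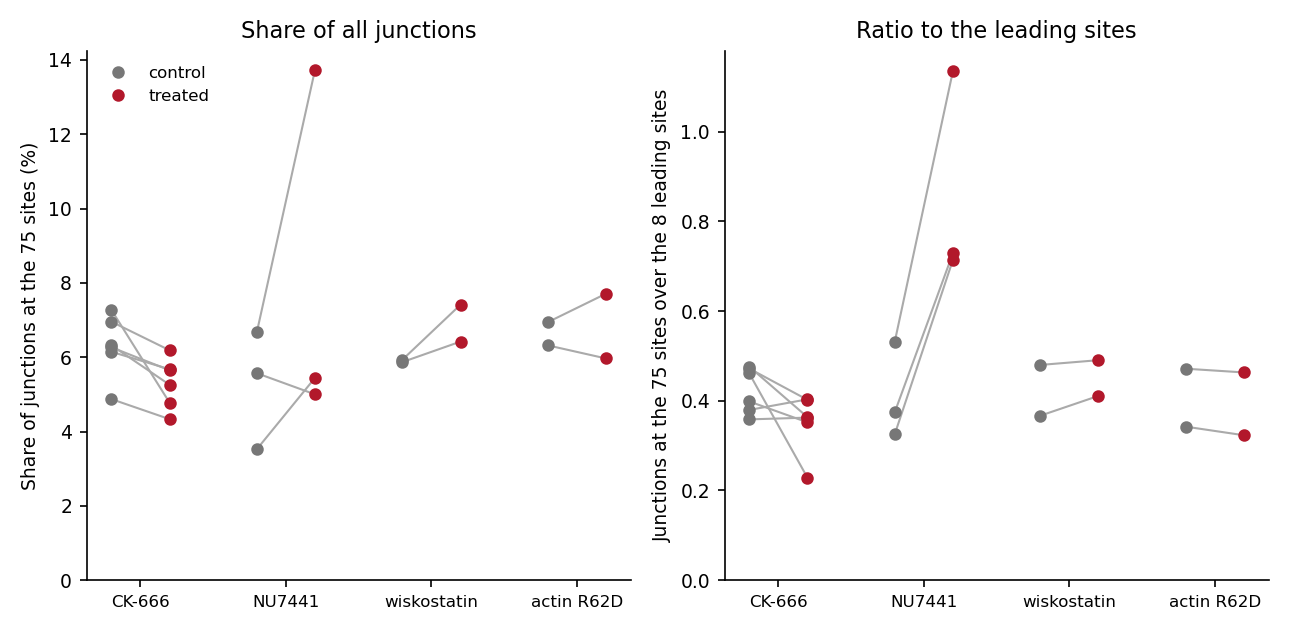
Share of junctions at the 75 sites (%, left) and the ratio of junctions at the 75 sites to those at the 8 leading sites of chromosome 2 (right). Points are libraries and lines join the libraries of a pair. CK-666 lies below its control in 6 of 6 pairs on the left, and NU7441 above its control in 3 of 3 on the right. The leading sites were chosen by their prey in these data.

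With NU7441 the share at the 75 sites was 5.45%, 5.00% and 13.7%, against 3.53%, 5.57% and 6.68% with DMSO. Replicates 1 and 3 were above their controls and replicate 2 below, and the third treated library stood apart from all others. The mean log2 ratio was 0.50 ± 0.608 (SD, n = 3; exact p = 0.5, adjusted p = 0.5; 3 pairs cannot give less than 0.25). It was 0.24 without the third pair and 0.83 without the second. With only junctions at AsiSI motifs as the total, the log2 ratio was 0.64 ± 0.0809 (SD) and higher in 3 of 3 pairs. The exact sign-flip p was 0.25, not adjusted, so the direction in the second pair depended on the total used. The NU7441 library was the shallower of each pair, with 1928, 1300 and 6348 junctions against 4567, 2442 and 17479.

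Relative to the leading sites the members gained in 3 of 3 pairs, a measure added after the data had been seen. The leading sites were set aside for their prey in these data, so the ratio and its p are not independent of that choice. There were 0.729, 0.714 and 1.14 junctions at members per junction at the 8 leading sites with NU7441, and 0.374, 0.325 and 0.532 with DMSO. Treated and control libraries did not overlap. The mean log2 ratio was 1.06 ± 0.0905 (SD, n = 3), with an exact p of 0.25, the smallest possible. With CK-666 the same ratio was 0.352 ± 0.0643 against 0.424 ± 0.0515 (n = 6, log2 -0.28 ± 0.396, exact p = 0.125), and -0.14 on the log2 scale without the second pair. On other chromosomes, junctions at motifs with END-seq from 100 to 300 per junction at motifs over 300 were also more frequent with NU7441, at 0.428, 0.406 and 0.494 against 0.293, 0.311 and 0.331. Whether members and these motifs shifted by unequal amounts was not tested.

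Of the 17 members with at least 100 junctions, 6 had a higher share with NU7441 in all 3 pairs and 0 a lower share in all. Among 198 such motifs, 15.7% were higher and 16.7% lower in all pairs. The 6 were the sites at Usp6nl, Ly75, Rbms1, Chst1, Nop10 and Inafm2. The Usp6nl site had shares of 0.259%, 0.308% and 1.59% with NU7441 and 0.0438%, 0.164% and 0.343% with DMSO. These rest on 5, 4 and 101 junctions against 2, 4 and 60, so the first pairs give little precision. Its log2 change was 1.78 (SE 0.457, limma adjusted p = 0.0557). The Chst1 site had 0.622%, 0.538% and 1.86% against 0.328%, 0.369% and 0.784% (log2 change 0.89, SE 0.320, limma adjusted p = 0.205). At both sites the groups overlapped. The Ly75 site, in an intron of an endocytic receptor gene, had 0.259%, 0.308% and 0.378% with NU7441 and 0.131%, 0.164% and 0.183% with DMSO, without overlap (log2 change 0.93, SE 0.497, limma adjusted p = 0.598). The Pip4k2a site had 0.882%, 0.692% and 1.86% against 0.350%, 0.901% and 0.898%, lower in the second pair.

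Across the 22 members tested, limma called 0 with NU7441, against 1.01% of 298 motifs, and 18 had an estimate above 0, or 20 when the pseudocount was not scaled. At an unadjusted p under 0.05 it had 29 motifs and 2 members, Usp6nl and Chst1. Their median change was 0.45 and that of all motifs 0.00071. Without the third pair 11 of the 22 were above 0, and the medians were 0 and -0.061. The estimate was lowest at the site near Gm13527, at -1.06 (SE 0.905, limma adjusted p = 0.887).

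**Figure D5:**
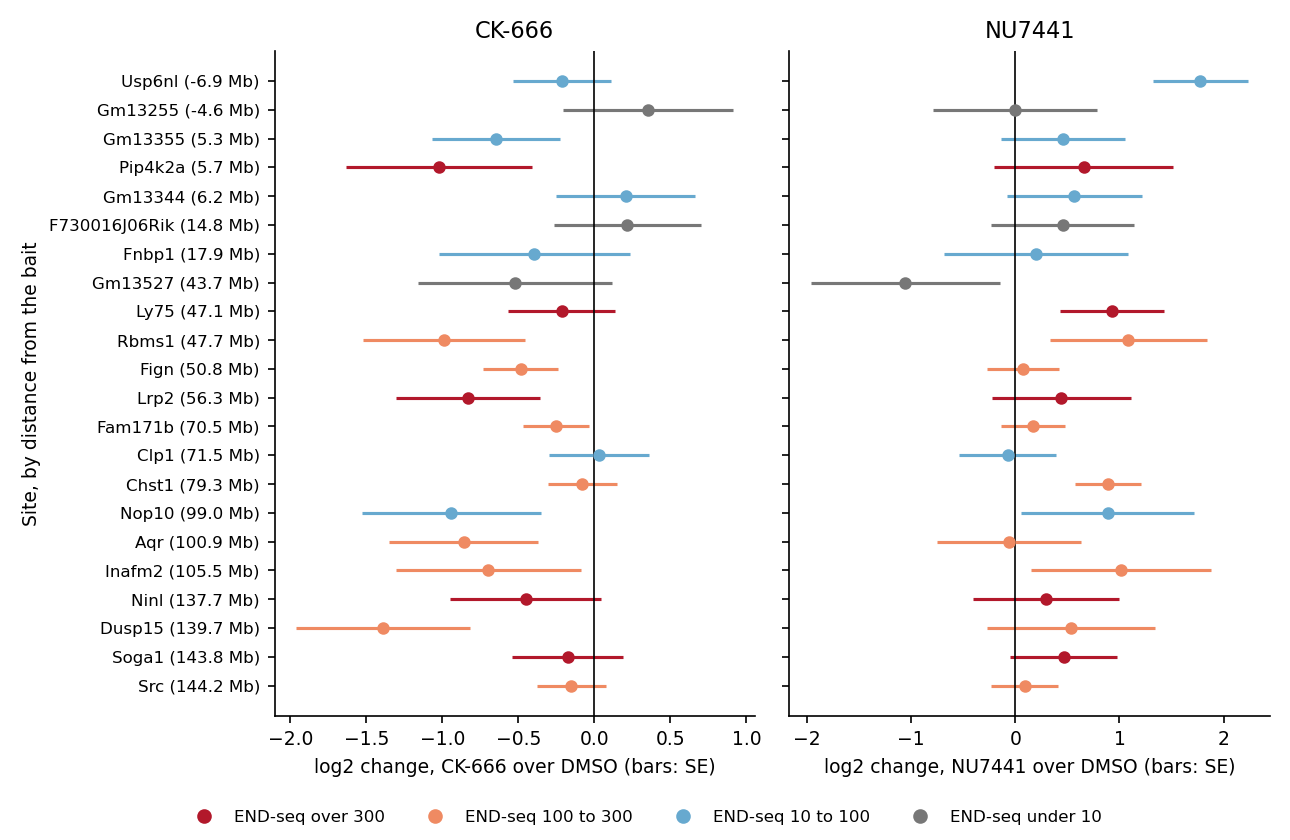
Log2 change of the share at the 22 members with at least 10 junctions, by limma, for CK-666 (left, 6 pairs) and NU7441 (right, 3 pairs), in order of distance from the bait. Bars are the SE and colours the END-seq class. With CK-666 18 sites lie below 0 (14 with an unscaled pseudocount) and with NU7441 18 lie above it (20), and none passed an adjusted p of 0.05. The median change of all 298 motifs was -0.26 with CK-666 and 0.00071 with NU7441.

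Join structure at the members moved with NU7441 in one direction for 2 classes. Overlaps of 6 or more bases made up 56.2%, 53.8% and 17.6% against 35.4%, 35.3% and 13.5% with DMSO, higher in 3 of 3 pairs. Blunt joins made up 23.8%, 16.9% and 19.0% against 27.95%, 25.0% and 28.02%, lower in 3 of 3. Both had an exact p of 0.25, the smallest possible, and an adjusted p of 0.562 over 8 tests. The shallower library of each pair was the treated one, and the share of long overlaps can also vary with depth through the removal of identical joins. The part of depth in these values was not tested. With CK-666 no class passed (exact sign-flip tests, adjusted p from 0.562 to 1). Blunt joins there were compared in 5 pairs, because 1 CK-666 library had none among its 16 members' joins.

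Wiskostatin gave shares of 7.41% and 6.42% at the 75 sites against 5.93% and 5.87% with DMSO, higher in both pairs. A higher share is not a higher frequency, which the study reported as lower with wiskostatin. Actin R62D-NLS gave 7.71% and 5.97% against 6.94% and 6.32% with empty vector, higher in 1 pair and lower in the other. No sign-flip test was run on these shares, since 2 pairs cannot give a low p. Per site, limma called 0 of 22 members and 0% of 298 motifs for each of them, with 2 and 12 motifs at an unadjusted p under 0.05. With actin R62D-NLS 1 of these was a member, Fam171b, at 0.981% and 0.932% against 0.686% and 0.401% (log2 change 0.85, SE 0.376, limma adjusted p = 0.975). The members' median changes were 0.18 and -0.0015, and those of all motifs 0.14 and 0.11.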

How the data were processed

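Junction tables of 32 HTGTS libraries were used. Per the study's methods the authors sequenced on a MiSeq, aligned to mm10 with BWA and filtered with the default HTGTS pipeline, removing duplicates and reads of low mapping quality. The deposited tables hold 1 line per junction, with genome and read positions (unit other) and strand as a score of 1 or -1, not normalized and not pooled. Motif positions and END-seq classes came from the study's source data, and 1109 of 1109 motifs were found in mm10. Overlap is the number of read bases shared by bait and prey. Genes are from GENCODE M21. The members and lists were chosen with earlier results of these data known. The replicate numbers of the labels served as pairs, because the study sets each control to 1 within its replicate and each pair shares a sequencing run. Deviations of same-numbered libraries over 235 motifs correlated at -0.0133 to 0.207 for CK-666 and 0.0541 to 0.197 for NU7441.

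Shares were compared by mean log2 ratios over pairs with exact two-sided sign-flip tests and Benjamini-Hochberg adjustment. Single motifs were tested by limma (lmFit, eBayes with trend, pair as a factor, pseudocount 0.5 scaled to the library total) over the 298 motifs with at least 10 junctions, at an adjusted p under 0.05. On simulated data it recovered 20.5% of changes of 1 and 68.5% of changes of 2 on the log2 scale for CK-666, and 0% and 36% for NU7441. The simulation changed most of the 298 motifs at once and assumed the spread between libraries, so recovery can be lower where few motifs change. Named sites are all members with END-seq over 100 and others with at least 10 junctions. Alternatives were the distance limit, distinct positions, other totals, other libraries, pseudocounts, filters and fits without the pairing. Wilson intervals and the limit for a count of 0 (3 counts) cover counting error only. Tools were limma 3.58.1 in R 4.3.3, and scipy 1.17.1, pandas 2.3.3, pysam 0.24.0, matplotlib 3.10.9 and numpy 2.4.6 in Python 3.11.15.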

Additional observations from a re-analysis of the deposited data

Results flagged for a closer look

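In 56 checks of 6 libraries each, 7 had a library far from the other 5. The limit used would flag about 1 in 20 sets of independent, normally spread values. The checks share libraries and some rest on few junctions, so that rate does not apply to them. Of these, 4 concern CK-666 replicate 2, with 335 junctions. It had a ratio of members to leading sites of 0.229 (the next was 0.352), shares of 0% at Pip4k2a (next 0.559%) and 0% at Aqr (next 0.202%), and 0.896% at Soga1 (next 0.310%), which rests on 3 junctions. CK-666 replicate 5, with 989 junctions, had 11.5% joins with overlaps of 1 to 5 bases (next 29.7%) and a share of 0.506% at Fnbp1 (next 0.156%). DMSO replicate 3 had a share of 2.93% at members with END-seq from 100 to 300, and the next was 3.66%.

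In the libraries with a Cas9-induced bait, which have no AsiSI, prey at the 75 sites lay above the limit for a count of 0 in 5 of 6 libraries. The shares were 0.197% and 0.715% in DMSO replicates 1 and 3, and 0.845%, 0.0983% and 0.628% in CK-666 replicates 1, 2 and 3. They came from 17 sites. The identity of most of these junctions with ones of AsiSI-MEF libraries is given above, and its cause was not tested.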

How the results depend on the processing

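The chromosome 2 excess in the END-seq classes from 100 to 300 and from 10 to 100 kept its direction and its call in every alternative run, with log2 ratios from 1.63 to 2.34 and from 2.28 to 3.28. The median over motifs could not be computed for the latter, since it is 0 on other chromosomes in some libraries. In the class under 10 the log2 ratio was -1.08 in the 6 DMSO libraries alone (exact sign-flip test, p = 0.0938), and over 300 it was 2.04 with the leading sites. The level of 6.31% was 5.47% within 50 bp, 8.43% of junctions at motifs, 5.45% without whole-motif joins (added after the data were seen), and 6.11% to 6.59% with 1 library left out. The CK-666 log2 ratio was -0.18 with each position counted 1 time (exact p = 0.0625), -0.19 over junctions at motifs (exact p = 0.156), -0.40 without whole-motif joins (exact p = 0.0625), and -0.27 to -0.17 with 1 pair left out, where 5 pairs cannot give less than 0.0625. Without the pairing (no replicate block) it was -0.25 with an exact permutation p of 0.0498. The NU7441 ratio of 0.50 ran from 0.24 to 0.83 with 1 pair left out, with an exact permutation p of 0.6 without the pairing. It was 0.64 over junctions at motifs (exact sign-flip p = 0.25) and 0.37 without whole-motif joins (exact sign-flip p = 0.75). The ratio of members to leading sites ran from 0.80 to 1.04 for NU7441 and from -0.44 to -0.19 for CK-666 over its alternatives, and from 1.03 to 1.11 and from -0.36 to -0.14 with 1 pair left out. The plus-strand difference turned to -0.0267 points with each position counted 1 time and to -1.89 in the 6 DMSO libraries, all without a call. With NU7441 limma called 3 motifs, 0 without the replicate block, 6 with a pseudocount of 2, 10 with an unscaled pseudocount, 5 with a minimum of 50 junctions, 1 with no minimum, 0 in a fit of those libraries alone, and 0 to 6 with 1 pair left out. It called 0 under all of these for the other treatments, where leaving out a pair of wiskostatin or actin R62D-NLS assumes the lone pair to vary like the others. The unscaled pseudocount moved the median change of all motifs to 0.34 for NU7441 and 0.053 for CK-666. The Usp6nl site passed with NU7441 at a pseudocount of 2 (limma adjusted p = 0.0302), unscaled (0.00564) and at a minimum of 50 (0.0353), and adjusted p ran from 0.0917 to 0.328 in the other alternatives. Depth limits most single sites, since the smallest library held 16 junctions at members.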
